A study of Mus musculus with 4 samples.

Results

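Pou2af1 was examined together with 4 B-cell genes (Ms4a1, Cd79a, Cd79b and Cd22) and 4 genes of MHC class II antigen presentation (Cd74, H2-Aa, H2-Ab1 and H2-Eb1). These 9 genes were found by their symbol in the platform annotation, which names 16593 genes, and they had 16 of the 25697 probes on the array. Pou2af1 had been chosen from the comparison described here: it stood at place 10 by unadjusted p among 1234 genes whose OX86 arrays both lay below both isotype arrays. The other genes were added as markers of the cells in which Pou2af1 is best known, with earlier results for them in view. The differences between the groups are therefore given as descriptions, without a p for any member.

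The cells were regulatory T cells from the spleens of C57Bl/6 mice aged 8 to 12 weeks, sorted by a green fluorescent reporter of Foxp3. All were activated overnight with an antibody to CD3. The isotype group received rat IgG with it, and the OX86 group received OX86, which binds and activates OX40, a costimulatory receptor of T cells. There were 2 Illumina bead arrays for each group, and the labels do not say whether the replicates came from separate cultures or animals, so the spread between them may be technical.

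Pou2af1 encodes a transcriptional coactivator, also called OCA-B, OBF-1 or Bob1, that binds DNA through the octamer factors Oct-1 (Pou2f1) and Oct-2 (Pou2f2). It is needed for germinal centres and is known from B cells, but it can also be induced in activated T cells. Ms4a1 encodes CD20, Cd79a and Cd79b the signalling chains of the B-cell receptor, and Cd22 an inhibitory lectin of B cells. H2-Aa and H2-Ab1 encode the chains of the class II molecule I-A, H2-Eb1 the beta chain of I-E, and Cd74 the invariant chain that guards the peptide groove. These class II genes are active chiefly in B cells, dendritic cells and macrophages.

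RefSeq promoter sequences (GRCm38.p6) were at hand for 5 of the 9 members, and 3 are shown. Pou2af1 is the gene chosen from the comparison described here. Cd79a is a B-cell gene it was set against, and H2-Aa is a class II gene that was not detected. Each sequence is the 250 bases before the annotated start, read 5′ to 3′ on the gene's own strand. Capitals mark the matches, on both strands, to the octamer core TGCAAAT, the CCAAT box CCAAT and the cAMP response element core TGACGT. The coordinates are chr9:51213440-51213689 (plus strand) for Pou2af1, chr7:24897247-24897496 (plus strand) for Cd79a and chr17:34287824-34288073 (minus strand) for H2-Aa.
Pou2af1: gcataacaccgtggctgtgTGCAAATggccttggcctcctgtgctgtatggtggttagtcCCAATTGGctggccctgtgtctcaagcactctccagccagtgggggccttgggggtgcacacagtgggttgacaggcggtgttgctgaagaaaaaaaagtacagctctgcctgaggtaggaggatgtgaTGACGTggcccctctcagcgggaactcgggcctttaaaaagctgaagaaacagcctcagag
Cd79a: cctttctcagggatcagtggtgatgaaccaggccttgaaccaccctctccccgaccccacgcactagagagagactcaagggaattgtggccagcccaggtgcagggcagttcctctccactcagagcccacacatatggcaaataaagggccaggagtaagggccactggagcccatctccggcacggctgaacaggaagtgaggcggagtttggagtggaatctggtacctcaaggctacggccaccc
H2-Aa: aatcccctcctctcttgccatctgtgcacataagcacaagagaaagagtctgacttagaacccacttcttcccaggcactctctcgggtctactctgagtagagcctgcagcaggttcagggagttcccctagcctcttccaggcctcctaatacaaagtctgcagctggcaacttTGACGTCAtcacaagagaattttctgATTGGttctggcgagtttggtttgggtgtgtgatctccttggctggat
The full octamer ATGCAAAT, of which the core is a part, was in none of the 3, nor in the Cd22 and H2-Eb1 windows searched with them. It occurred in 1.60% of 32851 RefSeq promoter windows of this length. Pou2af1 had 1 octamer core, beginning 231 bases before the start, and 3.56% of all windows had at least 1. Its CCAAT boxes, beginning 190 and 187 bases before the start on opposite strands, overlap each other, and 33.8% of windows hold a CCAAT box. The TGACGT core was found in 6.47% of windows, 61 bases before the start of Pou2af1 and, as an overlapping match on both strands, 74 and 72 bases before that of H2-Aa. The H2-Aa window also had a CCAAT box at 48 bases, while the Cd79a window had no match to any of these motifs. A match is a description of the letters only.

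The labelled cell type was checked on its own markers, and markers of other cells are given further below. All 10 genes of a list for T cells and regulatory T cells were detected on all 4 arrays, and Foxp3, the factor that defines the regulatory lineage, gave 12.75 and 12.76 (isotype) and 12.71 and 12.95 (OX86) on the normalized log2 scale. Detected probes numbered 11800 to 13682 per array. Isotype 2 stood apart: its median signal was 296.4 against 316.0 to 324.7 on the others, and its correlations across tested probes were 0.968 to 0.972 against 0.981 to 0.985 for the pairs without it. Values with an array left out are given where they matter. Precision is limited throughout by having 4 arrays.

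Most of the member probes lay close to the detection limit. A probe is called detected where its deposited detection p, which sets it against the negative control beads of its array, is under 0.05. Of the 16 probes, 5 were detected on all 4 arrays: Pou2af1, Cd79a, the brighter Cd79b probe and both Cd74 probes. The probes detected on no array numbered 3, namely 2 for Cd22 and the probe for H2-Aa. A probe was tested if detected on at least 2 arrays, which kept 10 of the 16, from 6 genes. Cd22, H2-Aa and H2-Eb1 had no tested probe.

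Pou2af1 was well clear of the limit. Its deposited signals, on a linear scale before background correction, were 882.4 on isotype 1, 576.4 on isotype 2, 501.2 on OX86 1 and 574.9 on OX86 2. Divided by the lowest detected signal of the same array, these were 2.79, 1.91, 1.59 and 1.79. The same ratio for Cd79a was 1.20, 1.03, 1.12 and 1.01 in that order of arrays, and for the brighter Cd79b probe 1.26, 1.15, 1.16 and 1.22. Both chains of the B-cell receptor were thus measured on every array, but by a narrow margin. Ms4a1 was detected on 3 arrays, at ratios of 1.01 on isotype 1, 1.09 on OX86 1 and 1.06 on OX86 2, and was below the limit on isotype 2 with a detection p of 0.476.

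**Figure D1:**
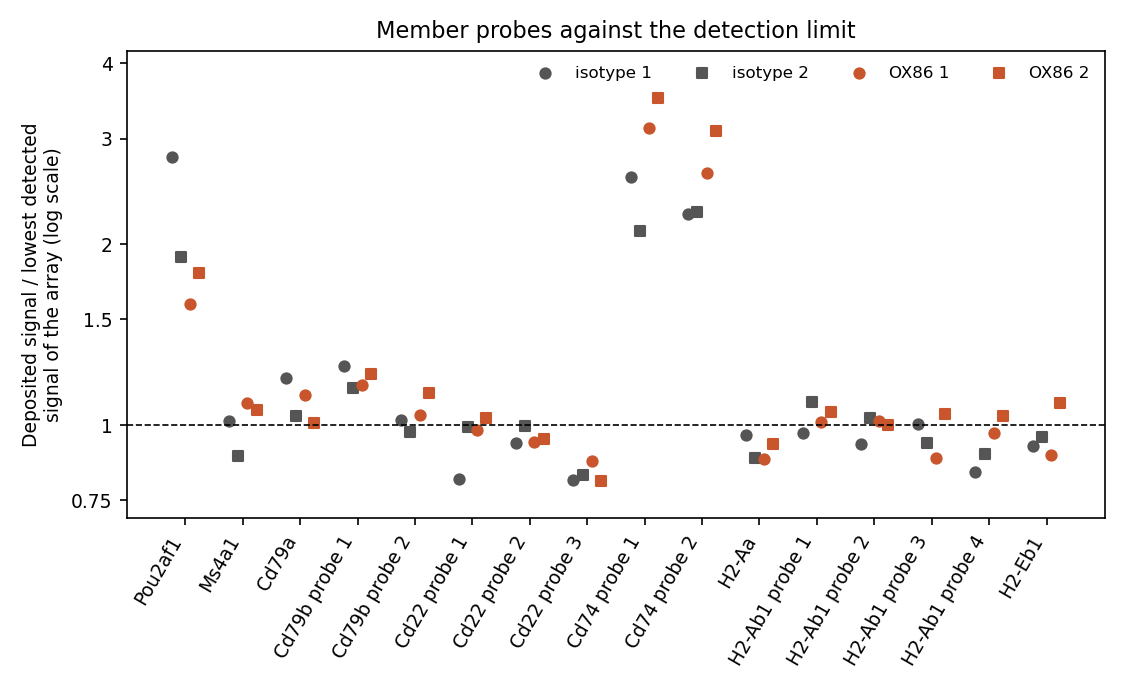
Deposited signal of each of the 16 member probes divided by the lowest detected signal of the same array (vertical axis, log scale), with 1 point per array and a dashed line at 1. Pou2af1 (1.59 to 2.79) and the Cd74 probes (2.11 to 3.50) lie clear of the line on all 4 arrays, and the other probes lie near or below it.

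The Pou2af1 signal was lower on the OX86 arrays, without passing the test. After background correction and quantile normalization its log2 signal was 8.85 on isotype 1 and 9.09 on isotype 2, against 7.92 on OX86 1 and 8.18 on OX86 2. Each OX86 value was below each isotype value, by a gap of 0.67 between the nearest pair, while the arrays of a group differed by 0.24 (isotype) and 0.26 (OX86). The log2 change, OX86 minus isotype, was -0.92 ± 0.21 (SE, 2 arrays per group; 95% interval -1.45 to -0.39), a 1.89-fold lower normalized signal. Because the gene was chosen by this same comparison, the change is likely too large. The interval takes no account of that choice and is no test of a fall. In the fit over all 13338 tested probes (limma, Benjamini-Hochberg adjustment) 0 probes passed at 0.05, or 0% of those tested, with 444 (3.33%) at an unadjusted p under 0.05. Pou2af1 was thus not called. Among all tested probes, 13.1% had both OX86 values below the isotype values and 13.9% had them above, or 26.9% together, so an order without overlap is common. Of the 10 tested member probes, 1 had the OX86 values below, 3 had them above and 6 overlapped. In bulk RNA, fewer cells that express a gene and less RNA per cell cannot be told apart.

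How far the Pou2af1 groups stood apart depended on how the signals were corrected and normalized. In the deposited signals isotype 2 and OX86 2 nearly coincided, at 576.4 and 574.9, and the log2 change was -0.41. In the authors' processed table the Pou2af1 values were 720.9 and 804.1 with isotype and 501.6 and 549.9 with OX86, which gives -0.54. When the arrays were scaled to a common median instead of quantile normalized, the log2 change was -0.78, where the median over all tested probes was 0.12. The order of the groups was the same in each of these versions. Leaving out any 1 array gave changes of -1.05 to -0.79. Pou2af1 was chosen among genes whose groups did not overlap, so leaving out 1 array could not turn the sign.

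In neither B-cell receptor chain did both OX86 arrays lie below the isotype arrays. Cd79a had log2 signals of 6.55 and 6.41 with isotype and 6.56 and 5.87 with OX86. Its highest and lowest values were both OX86 arrays, and its log2 change was -0.26 (95% interval -0.96 to 0.43). That change was -0.61 without OX86 1 and 0.08 without OX86 2. The brighter Cd79b probe read 6.74 and 7.22 with isotype and 6.75 and 6.88 with OX86, so both OX86 values lay between the isotype values. Its log2 change was -0.16 (-0.76 to 0.43), which became 0.08 without isotype 2 and -0.40 without isotype 1. The second Cd79b probe went the other way, from 5.81 and 5.76 with isotype to 6.09 and 6.53 with OX86, a change of 0.53 (-0.04 to 1.09), although it was not detected on isotype 2. This change was 0.12 without background correction and in the authors' processed values, and 0.16 in the deposited signals. The 2 probes for Cd79b thus differed in sign, and the direction of this gene is not settled.

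Ms4a1 had the opposite order to Pou2af1. Its log2 signals were 5.79 and 5.15 with isotype and 6.38 and 6.18 with OX86, with a log2 change of 0.81 (0.13 to 1.49). The groups did not overlap, but the lower isotype value was below detection. The change was 0.49 without isotype 2, 1.13 without isotype 1 and 0.19 without background correction. Cd22, with 3 probes, was near or below the limit throughout: its deposited signals ran from 249.7 to 328.8, and only 1 probe was detected, on OX86 2 alone (detection p 0.0301). Across the 7 B-cell probes 4 were tested, 2 higher and 2 lower in mean with OX86. None had both OX86 arrays below both isotype arrays. Ms4a1 and Cd79b probe 2 had both above, and neither was detected on isotype 2. Over all tested probes the shares were 13.1% below and 13.9% above, so with 4 probes these counts say little about B-cell genes.

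**Figure D2:**
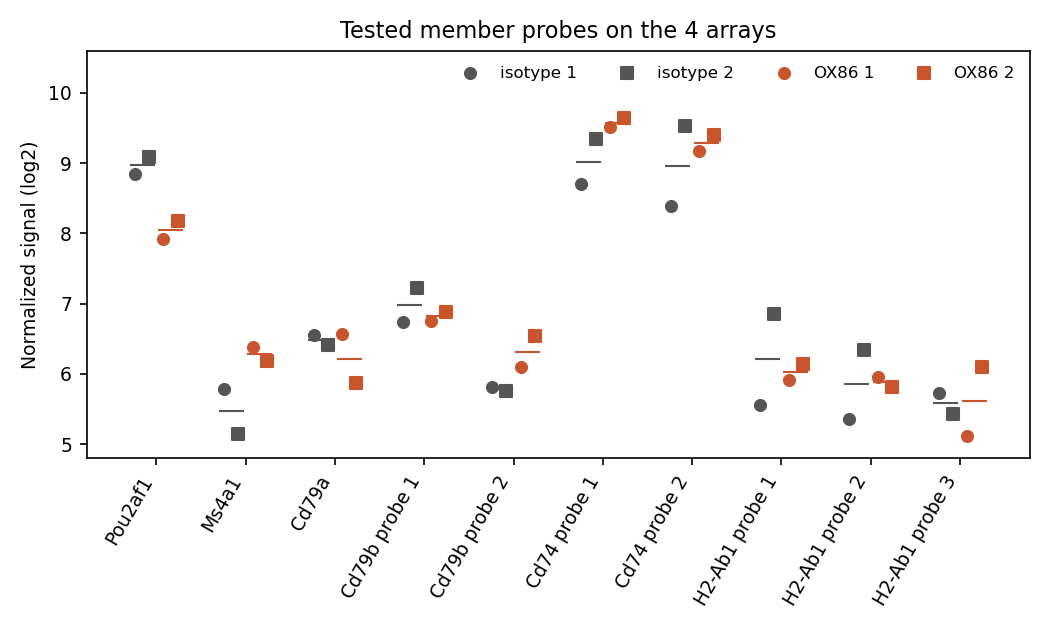
Normalized log2 signal (vertical axis) of the 10 tested member probes on isotype arrays (grey) and OX86 arrays (orange), with replicate 1 as circles, replicate 2 as squares and group means as short lines. Pou2af1, which was chosen among genes with this order, is the only one of the 10 with both OX86 arrays below both isotype arrays. Ms4a1, Cd79b probe 2 and Cd74 probe 1 have both above. Of all tested probes, 26.9% had groups without overlap.

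Cd79b was highest on isotype 2, as Pou2af1 was, while Cd79a was highest on OX86 1, where Pou2af1 was lowest. Ms4a1 had the opposite order of groups to Pou2af1. Each gene was centred on its mean over the 4 arrays, with its brightest probe standing for it. Centred Pou2af1 was 0.34 and 0.58 on isotype 1 and 2, and -0.59 and -0.33 on OX86 1 and 2. The mean of the 3 tested B-cell members was -0.01, -0.11, 0.19 and -0.06 on the same arrays. This mean includes Ms4a1, which was below detection on isotype 2. Over Cd79a and Cd79b alone, the B-cell members detected on all 4 arrays, it was 0.02, 0.19, 0.03 and -0.25, highest on isotype 2, as Pou2af1 was, and lowest on OX86 2. The departure of Pou2af1 from the mean of 3 genes was 0.35 and 0.69 with isotype and -0.78 and -0.26 with OX86, and from the mean of these 2 genes 0.32 and 0.39 against -0.63 and -0.08. The change of Pou2af1 minus the mean change of the 3 B-cell members, 0.13, was -1.05, with -1.31 to -0.79 when 1 array was left out. Against Cd79a and Cd79b, whose mean change was -0.21, it was -0.71, with -0.98 without OX86 2 and -0.43 without OX86 1. The sign of the B-cell mean thus depended on Ms4a1. An exact permutation test of 2 arrays against 2 cannot give a two-sided p below 0.333. Pou2af1 was also chosen for a fall in this comparison. A lower change than that of genes not chosen that way was therefore likely from the start. The values are descriptions, and whether Pou2af1 varies apart from B cells in the samples was not tested.

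The departure differed from gene to gene. Relative to Cd79b, Pou2af1 was 0.50 and 0.26 with isotype and -0.45 and -0.31 with OX86. Relative to Ms4a1 it was 0.43 and 1.30 with isotype and -1.10 and -0.63 with OX86. Relative to Cd79a the groups overlapped, at 0.13 and 0.52 with isotype against -0.80 and 0.15 with OX86, because both genes were low on OX86 2. The log2 change of Pou2af1 minus that of Cd79a was -0.66. Leaving out OX86 1 reduced it to -0.18, so that array carried most of it. It was -1.13 when OX86 2 was left out, and -0.46 and -0.85 when isotype 2 and isotype 1 were.

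**Figure D3:**
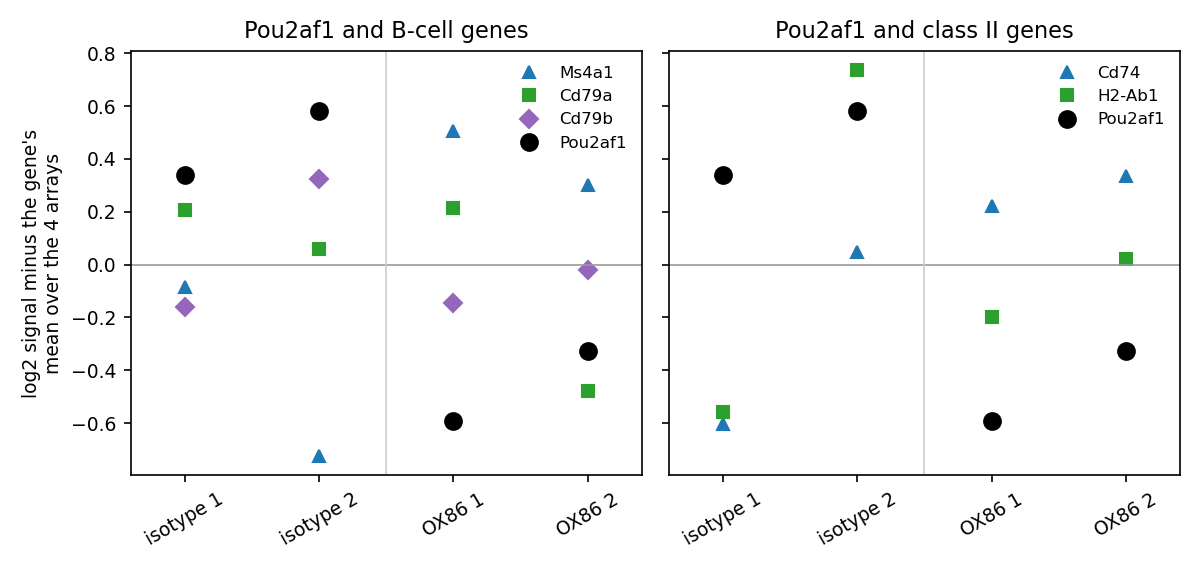
Log2 signal of each gene minus its own mean over the 4 arrays (vertical axis) for Pou2af1 (black) with 3 B-cell genes (left) and 2 class II genes (right). Pou2af1 is above 0 on both isotype arrays and below 0 on both OX86 arrays, and none of the other 5 genes has this order. Pou2af1 was chosen among genes with both OX86 arrays below both isotype arrays, which held for 13.1% of tested probes. With 5 other genes, its absence from them says little.

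The summed signal of the 3 tested B-cell members, on the linear normalized scale, was 256.1 and 269.6 with isotype and 248.6 to 285.8 with OX86, so the groups overlapped. Of a wider list of 17 B-cell genes, 11 had a probe under the listed symbol and 5 were tested. Pax5 and Ebf1, which define the B lineage, were among the 6 with a probe but not enough detection. Of the 5 tested, 1 was higher and 4 were lower in mean with OX86, with a median log2 change of -0.07 against 0.00 over all 9361 tested genes, and 0 were called. Without isotype 2, and likewise without OX86 2, 3 were higher and 2 lower. The tetraspanin gene Cd37, also active in T cells, had 9.53 and 9.71 with isotype and 9.40 and 9.70 with OX86. Fcer2a, the low-affinity IgE receptor CD23, had 8.58 and 9.31 against 9.03 and 8.82. The summed signal of these 5 genes was 1409 and 1703 with isotype and 1429 and 1531 with OX86. Cd37 was the brightest of the 5 on every array and weighed most in this sum, which is therefore not specific to B cells.

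Among the partners of Pou2af1, Pou2f2 (Oct-2) read 9.39 and 9.16 with isotype and 9.04 and 9.07 with OX86. Both OX86 arrays were the lower, but the log2 change of -0.22 (-0.71 to 0.28) was smaller than the range within the isotype pair. Ets1 and Ikzf1, lymphoid transcription factors on the same list, had changes of 0.02 and 0.07. Spib and Spi1, factors of B and myeloid cells, had no tested probe. Of the plasma cell list, Xbp1 and Irf4, which activated T cells also express, were tested, with changes of 0.02 and 0.34, while Jchain, Sdc1, Prdm1 and Tnfrsf17 were not.

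Pou2af1 is also known from follicular T cells, and 6 of 7 genes on a list for these were tested. Icos, a costimulatory receptor, had a log2 change of -0.19, the transcription factor Bcl6 -0.13, the adapter gene Sh2d1a -0.24 and the follicle-homing receptor Cxcr5 0.18. In all, 2 were higher and 4 lower in mean, with a median of -0.16, and 0 were called. Without isotype 2 the count was 4 higher and 2 lower, with a median of 0.02.

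Cd74 was the class II gene measured with a clear margin. Its brighter probe had log2 signals of 8.70 and 9.35 with isotype and 9.52 and 9.64 with OX86, so the groups did not overlap. The log2 change was 0.56 (-0.12 to 1.23), with 0.88 without isotype 2 and 0.23 without isotype 1. The other probe had 8.39 and 9.53 with isotype and 9.17 and 9.41 with OX86, a change of 0.33 (-0.64 to 1.30). There isotype 2 was the highest array. The change was 0.89 without isotype 2 and -0.24 without isotype 1, so its direction depended on which isotype array was kept. Isotype 1 was thus lowest on both probes, and the place of isotype 2 differed between them. In the deposited signals both probes had both OX86 arrays above both isotype arrays, with 637.1 to 817.3 against 830.0 to 1122. Those signals are not normalized, and 7705 of 9361 tested genes were higher in mean with OX86 there. The order on that scale therefore says little about Cd74. Pou2af1 minus Cd74 was 0.94 and 0.53 with isotype and -0.81 and -0.66 with OX86.

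The genes of the class II chains were at the limit of detection. H2-Aa, with deposited signals of 266.4 to 303.8 and detection p of 0.113 to 0.521, was detected on no array. H2-Eb1 was detected only on OX86 2, at 348.9, against 281.2 to 291.4 on the other arrays. H2-Ab1 had 4 probes, of which 3 were tested. Its brightest read 5.56 and 6.85 with isotype and 5.92 and 6.14 with OX86, with a log2 change of -0.18 (-1.25 to 0.89) that became 0.47 without isotype 2 and -0.83 without isotype 1. The isotype pair alone spanned 1.29, more than the whole range of the OX86 pair. Pou2af1 minus this H2-Ab1 probe was 0.90 and -0.16 with isotype and -0.39 and -0.35 with OX86. The log2 change of that difference was -0.74, with -0.21 without isotype 1 and -1.27 without isotype 2. The other tested H2-Ab1 probes had changes of 0.03 and 0.02, and the fourth probe was detected on OX86 2 alone. For this probe, for Cd22 probe 1 and for H2-Eb1 the mean of the OX86 arrays did not exceed the mean detection limit of the isotype arrays. These OX86 means lay above the log2 limit of isotype 1 (5.71) and below that of isotype 2 (6.05), so no fold is given.

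The class II machinery beyond the members was measured better than the chains themselves. Of 16 listed genes 14 were tested, 7 higher and 7 lower in mean with OX86, with a median log2 change of -0.00, and 0 were called. H2-Ob, a chain of the inhibitor H2-O, had 9.61 and 9.44 with isotype and 9.57 and 9.42 with OX86, and H2-Oa, its partner, a change of -0.47 (-1.38 to 0.44). H2-DMa, of the peptide exchange factor, had a change of 0.16 (-0.38 to 0.71), and Ctss, the protease that trims the invariant chain, 0.23 (-0.40 to 0.87). Ciita, the coactivator that switches on class II genes, was detected on 3 arrays, at 6.36 and 5.83 with isotype and 6.48 and 6.02 with OX86. Nfyc and Nfyb, subunits of the factor that binds CCAAT boxes, had changes of -0.06 and 0.03. Nfya, the remaining subunit, had 6.27 and 6.07 with isotype and 7.11 and 6.81 with OX86. Its change of 0.79 (0.25 to 1.32) was the highest of this list. Among all tested probes 13.9% had both OX86 values above the isotype values. With median scaling 10 were higher and 4 lower, and the median was 0.10, close to the shift of all probes under that scaling.

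Myeloid and dendritic-cell markers were mostly below detection. Of 16 listed genes 12 had a probe and 2 were tested, Cst3 and Siglech, whose log2 changes were 0.16 and -0.03. Lyz2, Itgam, Itgax, Cd14, Adgre1, Tyrobp and Fcer1g were among the 10 with a probe that was not tested. The summed signal of the 2 tested genes was 3438 and 3558 with isotype and 3437 and 4185 with OX86. Siglech, a receptor of plasmacytoid dendritic cells, had 9.99 and 9.77 against 9.49 and 10.21. Of the NK-cell and CD8 T-cell list 3 of 7 genes were tested, Cd8b1, Nkg7 and Klrd1, with changes of -0.10, 0.53 and 0.23. Cd8b1 was detected on all 4 arrays, at 9.57 and 9.79 with isotype and 9.61 and 9.54 with OX86. Cd4 read lower, at 8.72 and 9.14 with isotype and 8.72 and 9.03 with OX86. The part of CD8 T cells in these samples was not tested. Nkg7 read 6.67 on isotype 1 and 7.64 to 7.93 on the other arrays, and without isotype 1 all 3 genes were lower in mean, with a median of -0.09. The part of these cells in the Cd74 values was not tested.

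The genes nearest to Pou2af1 in their pattern over the 4 arrays were Gtf2b, Trappc12, Brinp1, Tmem159 and Adamdec1. The measure was the root mean square difference between centred log2 signals, which was 0.04, 0.07, 0.07, 0.09 and 0.12 for these genes against a median of 0.51 over 9360 genes. Each was detected on both isotype arrays and on neither OX86 array, so these genes entered the comparison only through the group in which they are high. Their likeness to Pou2af1, which was detected on all 4 arrays, is a description of signals at the limit. Of the members, Cd79b was at 0.39, with 12.7% of genes nearer, and Cd79a at 0.49, with 42.5% nearer. H2-Ab1 was at 0.53, Cd74 at 0.75 and Ms4a1 at 0.93, with 98.6% of genes nearer to Pou2af1 than Ms4a1 was. With 4 arrays these distances are descriptions.

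**Figure D4:**
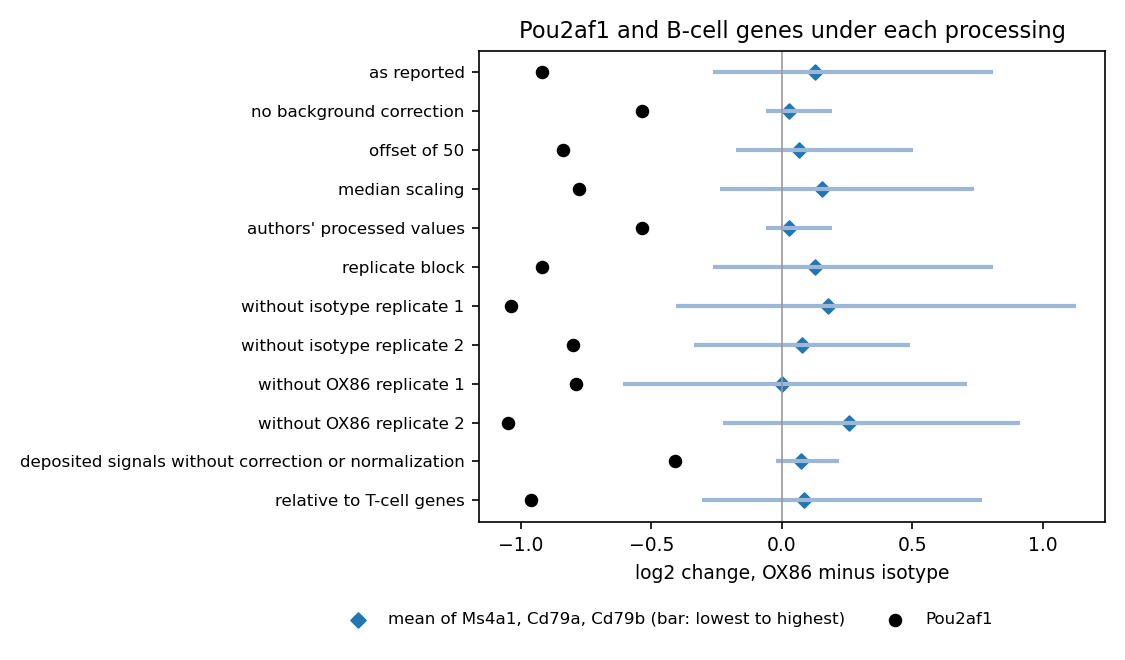
Log2 change, OX86 minus isotype (horizontal axis), of Pou2af1 (black) and the mean of Ms4a1, Cd79a and Cd79b (blue, with a bar from the lowest to the highest of the 3) under each processing (rows). Pou2af1 ranges from -1.05 to -0.41 and lies to the left of the B-cell bar in every row shown. The mean of these 3 B-cell genes stays between -0.00 and 0.26. Over Cd79a and Cd79b alone, the B-cell members detected on all 4 arrays, the mean change was -0.21, which is not shown. Pou2af1 was chosen for a fall in this comparison, so its place to the left was likely from the start.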

How the data were processed

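Total RNA had been amplified to biotinylated cRNA and hybridised to 4 arrays. The deposited table gives a signal intensity and a detection p-value per probe and array, from BeadStudio per the submitters' processing notes, with no version or settings given in the sources used here. A second deposited table holds the authors' processed intensity values, and on each array at least 99.98% of them differed by under 1% from the first table after plain quantile normalization.

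Intensities were corrected with limma 3.58.1 in R 4.3.3 (normal-exponential model from the detection p-values, offset of 16), quantile normalized and put on the log2 scale. Probes detected at p under 0.05 on at least 2 arrays (13338) were fitted by lmFit and eBayes, OX86 against isotype, two-sided and without covariates, with Benjamini-Hochberg adjustment. The fit was tested on simulated data. Names came from the platform annotation, and all 16 member probes matched RefSeq by Entrez number. All member probes were reported, and other lists by counts and up to 4 of their brightest tested genes. Some further genes were named because they were not tested. Foxp3, Cd4, H2-DMa, H2-Oa, Ciita and Nfya were chosen for their role after their values were seen. The members and lists were chosen with earlier results of these data known. Probe sequences were not used here, so cross-hybridisation was not assessed.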

Additional observations from a re-analysis of the deposited data

How the results depend on the processing

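Under all 13 alternatives limma called 0 probes at the adjusted threshold, with 1 (deposited signals without correction or normalization) to 1540 (without isotype 1) at an unadjusted p under 0.05. The log2 change of Pou2af1 was -0.54 without background correction, -0.54 in the authors' processed values and -0.41 in the deposited signals, which keep the background under each log ratio. Leaving out 1 array gave -1.05 to -0.79, where the order of groups for which the gene was chosen fixed the sign. The change of Pou2af1 minus the mean change of the B-cell members was -0.56, -0.56 and -0.48 under the same 3 settings, -0.71 over the B-cell genes detected on all 4 arrays and -1.31 to -0.79 without 1 array, where a lone array is assumed to vary like the other group. Of 112 values of the other 9 tested member probes, 106 moved by less than the replicate SD and 16 had the opposite sign. Many of the 106 were fixed in advance, so this count is no measure of robustness. Leaving out 1 array cannot shift a change by more than that SD. The change itself is the same without the detection filter, with only probes detected on all 4 arrays and with the replicate block. All values that moved further were from signals without background correction, the authors' processed values or the deposited signals. With the replicate block the Pou2af1 change was -0.92 and 0 probes passed, with 522 at an unadjusted p under 0.05. The labels do not say that numbers pair arrays, and deviations of same-numbered arrays correlated at 0.066 across tested probes. The member probes detected on all 4 arrays were 4 at a detection p under 0.01. The deposited signals, the scaling to T-cell genes and the mean over Cd79a and Cd79b were added after the data were seen. Signals near background limit the members other than Pou2af1 and Cd74 most. The Pou2af1 change also moved by more than its replicate SD in 3 of 13 alternatives, under the same settings, so its size depends on the background correction.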
